A study of Homo sapiens with 8 samples.

Results

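Receptor tyrosine kinases are single-pass membrane proteins that pair up when a ligand binds, phosphorylate each other on tyrosine and recruit adaptors that feed the RAS-ERK, PI3K-AKT and phospholipase C pathways. In breast epithelium the ERBB receptors are the best known of them, and other receptor tyrosine kinases are known as alternative routes into the same pathways when ERBB2 is inhibited. The genes described here are the 36 receptor tyrosine kinases on a list that leaves out the ERBB, insulin/IGF, RET and ephrin receptors, taken by symbol from a table of 26475 genes. All 36 symbols were found.

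The samples were 8 bulk RNA libraries of BT474, an established human breast cancer line of luminal type with amplified ERBB2. In 4 of them the cells were labelled NPY1R high and in 4 NPY1R low, after the neuropeptide Y receptor Y1 gene, and the labels give this level as the genotype. All 8 share the same line and culture below confluence in multiwell plates, and no drug is named for them, although the title of the series speaks of tolerance to the EGFR and ERBB2 inhibitor lapatinib. How high and low cells were separated is not given in the sources used here, nor whether the replicates were separate cultures, so p-values measure the spread between these libraries, which may be technical.

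Libraries held from 18025648 to 30609791 expected counts. NPY1R itself had 17256 to 28986 counts in the NPY1R high and 2028 to 2709 in the NPY1R low libraries, so each library matched its label. Summed markers of luminal epithelium lay between 7183 and 8264 CPM (counts divided by the TMM-scaled library size and brought to a common total) in NPY1R high and between 7030 and 9279 CPM in NPY1R low, with all 9 detected and ERBB2 the largest of them (mean 3468 CPM). Of these 9, ESR1 and GATA3 were called higher in NPY1R high (log2 0.59 and 0.60) and EPCAM lower (log2 -0.30). These 3 are 33.3% of the 9, where 13.6% of all genes tested were called. These 3 and CDH1 (log2 -0.16, not called) did not overlap between the groups, nor did 20.2% of all genes tested. Of 8 fibroblast markers 4 had no count in any library, and the sum of all 8, nearly all of it COL1A1, was 10.9 to 17.5 CPM in NPY1R high, against 10.4 to 17.5 CPM in NPY1R low. Blood cell markers summed to 1.54 to 2.49 CPM against 1.83 to 2.91 CPM, with CD3E and MS4A1 at 0. Endothelial markers, mostly VWF, summed to 12.0 to 17.8 CPM against 15.3 to 21.3 CPM, and myoepithelial markers to 9.76 to 13.2 CPM against 9.56 to 12.1 CPM. The summed ranges of each of these lists overlapped between the groups, and the part of the called luminal markers in the receptor results was not tested.

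Of the 36 receptors, 20 had enough counts to be tested, 10 had some counts but too few, and 6 had no count in any library. By edgeR's quasi-likelihood test, 5 of the 20 were called (adjusted p under 0.05). NTRK3, KIT and MERTK were higher in NPY1R high, and FGFR3 and LMTK2 were lower. Among all 14008 genes tested, 13.6% were called, 5.78% higher and 7.81% lower, so that 42.5% of all calls were higher. With upper-quartile scaling 56.3% of all calls were higher, and 4 receptors were higher and 2 lower. Of the 20, 15 reached the level of the count filter (0.374 CPM) in all 8 libraries. KIT, NTRK2 and NTRK3 reached it in all 4 NPY1R high libraries and in 1, 0 and 3 of the NPY1R low libraries. DDR2 reached it in all 4 NPY1R low and 3 NPY1R high libraries, and AXL in 3 NPY1R high and 2 NPY1R low libraries. A receptor that enters the test mainly through the group in which it is high, as KIT and NTRK2 do, is bound to differ. NTRK3, KIT, MERTK, FGFR3, LMTK2, FGFR2 and NTRK2 did not overlap between the groups, 7 of the 20, where 20.2% of all genes tested did not overlap. NTRK3 and KIT were called with a change of at least 2-fold, where 3.2% of all genes tested were. The filter touches each of these counts, so they are descriptions and not evidence about receptor tyrosine kinases as a class. In bulk RNA, fewer cells with a gene and less of its RNA per cell cannot be told apart.

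**Figure D1:**
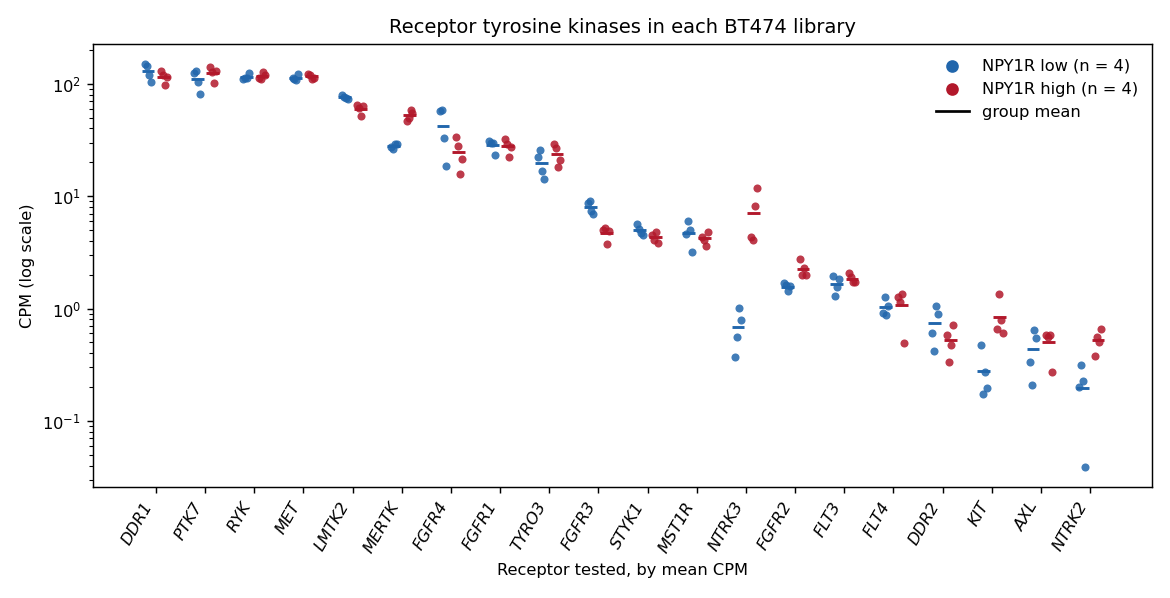
CPM of the 20 receptors tested in each library, on a log axis, with NPY1R low in blue, NPY1R high in red and group means as bars (n = 4 each). NTRK3 shows the widest gap between the groups, while DDR1, PTK7, RYK and MET lie near 100 CPM in both groups with overlapping libraries.

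The neurotrophin receptor NTRK3 had the largest change of the receptors tested. NTRK3 encodes TRKC, the receptor for neurotrophin-3, best known from sensory and proprioceptive neurons and from an ETV6 fusion that drives secretory breast carcinoma. It had 4.36, 4.09, 8.21 and 11.7 CPM in NPY1R high replicates 1 to 4 and 0.369, 0.56, 1.01 and 0.786 CPM in NPY1R low replicates 1 to 4. Every NPY1R high library was above every NPY1R low library, and in both groups replicates 3 and 4 were above replicates 1 and 2. NTRK3 rose by a log2 of 3.40 (SE 0.42), a 10.5-fold difference between 7.10 ± 3.62 and 0.68 ± 0.276 CPM (SD, n = 4 per group; edgeR's quasi-likelihood adjusted p = 0.000536). Within replicates 1 and 2 alone the log2 difference of the mean CPM was 3.05, and within replicates 3 and 4 alone 3.40. The counts behind it were 110 to 227 in NPY1R high and 11 to 22 in NPY1R low. The gene (ENSG00000140538.16) spans chr15:87859751-88256768 on the minus strand of GRCh38 in GENCODE 29. It overlaps a non-coding RNA gene on the plus strand, NTRK3-AS1, which had 2 counts over all 8 libraries. MED28P6, a processed pseudogene on the same strand as NTRK3, also overlaps it, and its counts are not given here. Gene counts add all transcripts together, so forms of NTRK3 with and without the kinase domain cannot be told apart here.

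Its relative NTRK2, which encodes TRKB, the receptor for BDNF and neurotrophin-4, was near the limit of detection. NTRK2 had 11 to 15 counts in NPY1R high and 1 to 9 in NPY1R low, or 0.526 ± 0.118 against 0.196 ± 0.115 CPM (SD, n = 4 per group). The groups did not overlap, but the log2 difference of 1.36 (SE 0.43) did not pass edgeR's quasi-likelihood test (adjusted p = 0.0672). The neurotrophins themselves were almost absent. NTF3, the ligand of TRKC, had 5 counts over the 8 libraries, BDNF 17 and NTF4 13. In the same branch of the kinase tree, ROR1 had 24 counts and ROR2 5, both receptors for WNT5A, and MUSK, the agrin-dependent receptor of the neuromuscular junction, had 0.

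KIT, the stem cell factor receptor of mast cells, melanocytes and blood progenitors, and its ligand gene KITLG were both higher in NPY1R high. KIT had 0.653, 1.34, 0.796 and 0.606 CPM in NPY1R high replicates 1 to 4 and 0.47, 0.175, 0.275 and 0.196 CPM in NPY1R low replicates 1 to 4. The groups did not overlap, although NPY1R low replicate 1 came close to the lowest NPY1R high library. These values rest on 11 to 36 counts against 5 to 14. KIT reached the level of the count filter in all 4 NPY1R high libraries and in 1 NPY1R low library. It entered the test mainly through NPY1R high, so the lack of overlap and the p-value that follows are descriptions only. The rise of KIT had a log2 of 1.59 (SE 0.39), a 3.00-fold difference (edgeR's quasi-likelihood adjusted p = 0.0238). That call was lost without NPY1R high replicate 2 (log2 1.28, adjusted p 0.0675), without NPY1R low replicate 2 (adjusted p 0.0635) and without NPY1R low replicate 3 (adjusted p 0.0652). The gene spans chr4:54657918-54740715 on the plus strand of GRCh38. Of the markers of neural crest lineages, in which KIT is also known, S100B had 0 and SOX10 4 counts over the 8 libraries, while MITF had a mean of 7.70 CPM.

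KITLG, which encodes stem cell factor, was measured far more deeply. It had 181.2, 209.9, 183.8 and 165.3 CPM in NPY1R high replicates 1 to 4 and 88.7, 95.7, 68.0 and 66.4 CPM in NPY1R low replicates 1 to 4. All NPY1R high libraries were above all NPY1R low libraries, with a log2 change of 1.21 (SE 0.13), a 2.32-fold difference, and edgeR's quasi-likelihood test gave an adjusted p = 0.000181.

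The other receptors of the KIT and PDGF receptor family showed no called change. FLT3, the cytokine receptor of early blood progenitors, had 1.85 ± 0.163 CPM in NPY1R high against 1.66 ± 0.294 CPM (SD, n = 4 per group), with overlapping libraries. CSF1R, the macrophage colony-stimulating factor receptor, had 25 counts over the 8 libraries, and PDGFRA and PDGFRB, which mark fibroblasts and mural cells, had 6 and 0. Among the platelet-derived growth factors, PDGFD rose from 4.29 ± 0.703 to 7.91 ± 0.835 CPM (SD, n = 4 per group), a log2 change of 0.89 (SE 0.15; edgeR's quasi-likelihood adjusted p = 0.0029). PDGFA, PDGFB and PDGFC had log2 differences of 0.13, -0.06 and -0.08 and did not pass.

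MERTK rose with the smallest error of the called receptors relative to its change. It belongs to the TAM receptors (TYRO3, AXL and MERTK), which bind GAS6 and protein S on dying cells and are best known for clearance of apoptotic cells. MERTK had 46.8, 49.6, 58.4 and 54.8 CPM in NPY1R high replicates 1 to 4 and 27.5, 26.0, 29.1 and 29.3 CPM in NPY1R low replicates 1 to 4. The libraries within each group lay close together, and the groups were far apart. The log2 change was 0.90 (SE 0.08), a 1.87-fold difference (edgeR's quasi-likelihood adjusted p = 9e-05), and by mean CPM it was 0.85 over replicates 1 and 2 alone, against 0.95 over replicates 3 and 4. The gene (ENSG00000153208.16) spans chr2:111898479-112029561 on the plus strand of GRCh38. It overlaps 3 other genes, RN7SL297P on its own strand and processed pseudogenes on the minus strand, whose counts are not given here.

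TYRO3 and AXL did not pass. TYRO3 ranged from 18.1 to 29.3 CPM in NPY1R high and from 14.3 to 25.6 CPM in NPY1R low, overlapping ranges in which replicates 3 and 4 of both groups were the lower ones. Its log2 difference was 0.27 (SE 0.20). It has a pseudogene in the table, TYRO3P, with 39 counts over all libraries, so few reads of TYRO3 could have been assigned there. AXL, abundant in mesenchymal-like carcinoma lines, had 5 to 17 counts in a library and a log2 difference of 0.27 (SE 0.38). Of their ligands, GAS6 had a log2 difference of 0.36 (SE 0.28; edgeR's quasi-likelihood adjusted p = 0.479), and PROS1 had 13 counts over the 8 libraries.

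**Figure D2:**
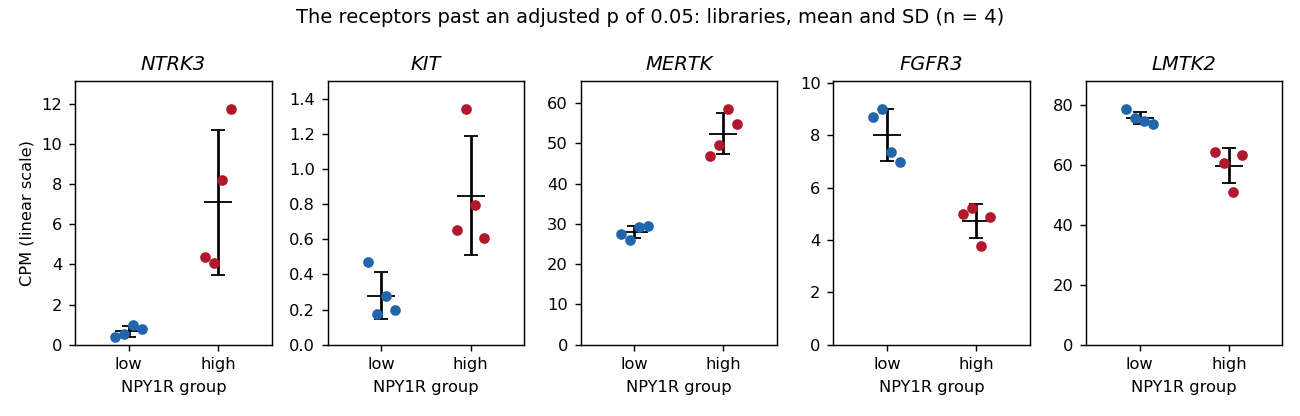
CPM of the 5 receptors past an adjusted p of 0.05 in each library, on linear axes that start at 0, with the mean and SD of each group in black (n = 4). No library of one group reaches into the range of the other for NTRK3, KIT, MERTK, FGFR3 or LMTK2, and among these 5 the SD within NPY1R high is largest relative to its mean for NTRK3 (3.62 CPM on 7.10).

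The start regions of the 3 receptors called higher are shown, with that of FGFR3, called lower as LMTK2 was, for comparison. They come from RefSeq on GRCh38.p14, where 32 of the 36 receptors had an entry, and run from 250 bases before to 50 bases after the annotated start, 5′ to 3′ on the strand of the gene. Capitals mark the GC box GGGCGG on either strand. They lie at chr15:88256690-88256989 (NTRK3, minus strand), chr4:54657707-54658006 (KIT, plus strand), chr2:111898357-111898656 (MERTK, plus strand) and chr4:1793043-1793342 (FGFR3, plus strand).
NTRK3: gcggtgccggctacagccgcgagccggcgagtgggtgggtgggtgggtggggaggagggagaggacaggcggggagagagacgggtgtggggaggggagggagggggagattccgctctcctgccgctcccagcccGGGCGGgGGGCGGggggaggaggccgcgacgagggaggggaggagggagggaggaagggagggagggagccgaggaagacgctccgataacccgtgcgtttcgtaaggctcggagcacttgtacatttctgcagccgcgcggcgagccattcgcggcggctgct
KIT: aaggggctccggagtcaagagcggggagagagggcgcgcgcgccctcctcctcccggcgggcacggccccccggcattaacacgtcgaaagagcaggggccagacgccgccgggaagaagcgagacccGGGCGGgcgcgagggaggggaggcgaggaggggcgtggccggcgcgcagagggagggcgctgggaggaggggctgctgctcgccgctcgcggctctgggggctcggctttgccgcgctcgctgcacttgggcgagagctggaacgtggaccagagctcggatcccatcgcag
MERTK: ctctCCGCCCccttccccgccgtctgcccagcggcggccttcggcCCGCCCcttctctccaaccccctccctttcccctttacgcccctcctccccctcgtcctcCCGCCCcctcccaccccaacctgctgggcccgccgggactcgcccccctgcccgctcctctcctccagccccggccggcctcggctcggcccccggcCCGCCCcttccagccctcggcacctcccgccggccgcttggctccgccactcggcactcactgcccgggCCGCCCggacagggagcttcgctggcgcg
FGFR3: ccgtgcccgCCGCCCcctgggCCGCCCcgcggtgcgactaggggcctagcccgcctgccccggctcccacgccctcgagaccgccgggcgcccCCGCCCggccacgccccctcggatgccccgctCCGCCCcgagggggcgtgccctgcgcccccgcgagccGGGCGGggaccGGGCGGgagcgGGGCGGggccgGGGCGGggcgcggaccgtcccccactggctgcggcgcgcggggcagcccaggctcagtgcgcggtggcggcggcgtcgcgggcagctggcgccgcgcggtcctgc

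All 4 windows are GC-rich, at 72.0% G and C for NTRK3, 74.3% for KIT, 78.3% for MERTK and 86.3% for FGFR3, against a median of 58.7% over 35116 RefSeq windows of the same length. The window of LMTK2, which was also called lower and is not printed, had 57.0% G and C and 3 GC box matches. Windows of receptors tested but not called ran from 41.0% (a window of DDR2) to 80.3% (a window of TYRO3). Those of NTRK3, KIT, MERTK and LMTK2 lay inside this range, and that of FGFR3 lay above it. Whether GC content goes with the calls was not tested. The GC box matched 2 times in NTRK3, 1 time in KIT, 5 times in MERTK and 8 times in FGFR3, and 45% of all windows hold at least 1 match. Searched on both strands in the same windows, the full palindrome of the estrogen response element (in 0.057% of all windows), its arm GGTCA (in 37.4%), the progesterone and androgen receptor element arm TGTTCT (in 14.8%), the FOXA core TGTTTAC (in 3.42%) and the box CCAAT (in 34.6%) had 0 matches in each of the 4. The GGTCA arm is part of the palindrome, so these counts are not independent. A window without these letters says nothing about binding elsewhere in the gene.

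The 4 fibroblast growth factor receptors went different ways. FGFR3, known for activating mutations in skeletal dysplasia and bladder cancer, had 4.98, 5.24, 3.76 and 4.90 CPM in NPY1R high replicates 1 to 4 and 8.69, 9.001, 7.37 and 6.99 CPM in NPY1R low replicates 1 to 4. The groups did not overlap. FGFR3 fell by 0.77 on the log2 scale (SE 0.14), a 1.70-fold difference (edgeR's quasi-likelihood adjusted p = 0.00584). The gene (ENSG00000068078.18) spans chr4:1793293-1808872 on the plus strand of GRCh38.

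FGFR4, the receptor that pairs with KLB to bind FGF19, had a difference of similar size but did not pass. It had 33.9, 27.7, 15.7 and 21.2 CPM in NPY1R high replicates 1 to 4 and 57.3, 58.2, 32.8 and 18.5 CPM in NPY1R low replicates 1 to 4. NPY1R low replicate 4 lay inside the NPY1R high range, and replicates 3 and 4 of both groups were below replicates 1 and 2. The log2 difference of -0.76 (SE 0.35) did not pass edgeR's quasi-likelihood test (adjusted p = 0.207). The longest coding transcript of FGFR4 has 63.6% G and C. With each library's trend of counts on transcript GC content removed, the log2 difference was -0.67 and the adjusted p 0.0307, with replicates 1 and 2 set apart from 3 and 4 by a term it was 0.0162, and without NPY1R low replicate 4 the log2 difference was -0.97 and the adjusted p 0.0212. With the GC correction joined to the replicate number as a block, the log2 difference was -0.66 and edgeR's quasi-likelihood adjusted p 2e-04. These were the 4 of 19 alternatives that called it. FGFR4 is therefore called lower or not according to how these 8 libraries are modelled.

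FGFR2, a receptor for FGF7 and FGF10 in epithelium and a breast cancer susceptibility gene, had 2.75, 2.01, 2.28 and 1.98 CPM in NPY1R high, against 1.68, 1.61, 1.42 and 1.57 CPM in NPY1R low. Every NPY1R high library was above every NPY1R low library, but the log2 difference of 0.52 (SE 0.17) did not pass edgeR's quasi-likelihood test (adjusted p = 0.0684). The value was under 0.05 with upper-quartile scaling (0.0473), with genes of at least 1 CPM in 4 libraries (0.0428) and with the term for replicates 1 and 2 against 3 and 4 (0.0491). FGFR1, often amplified in luminal breast cancer, had 32.1, 28.97, 22.5 and 27.1 CPM in NPY1R high, against 31.2, 29.8, 29.8 and 23.3 CPM in NPY1R low. These ranges overlapped almost fully, with a log2 difference of -0.04 (SE 0.13). Of the 18 FGF ligand genes listed, only FGF1 could be tested (log2 -0.09, SE 0.30), and 11 had no count in any library.

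**Figure D3:**
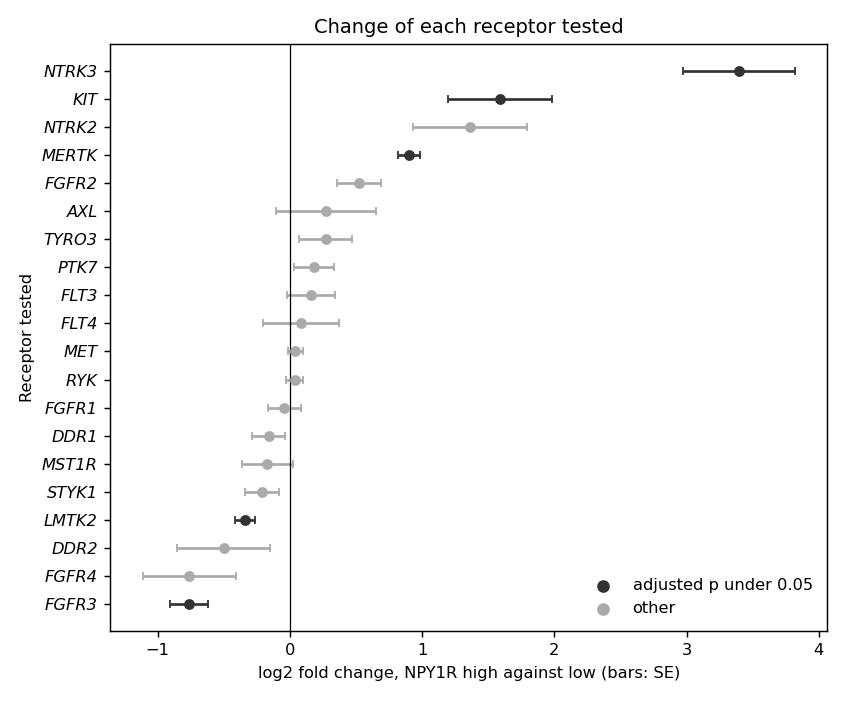
Log2 fold change of each of the 20 receptors tested, NPY1R high against low, with bars of 1 SE, where dark points passed edgeR's quasi-likelihood test. Among the called receptors NTRK3 stands at 3.40, KIT at 1.59 and MERTK at 0.90, and FGFR3 and LMTK2 lie at -0.77 and -0.34, while FGFR4 at -0.76 has a wide bar and did not pass.

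LMTK2 belongs to the lemur tail kinases, which are grouped with the receptor tyrosine kinases by sequence but phosphorylate serine and threonine, and which act in endosome traffic. It had 64.3, 60.8, 51.2 and 63.4 CPM in NPY1R high replicates 1 to 4 and 78.7, 76.0, 74.8 and 73.8 CPM in NPY1R low replicates 1 to 4. The NPY1R low libraries lay close together and above all NPY1R high libraries. LMTK2 fell by 0.34 on the log2 scale (SE 0.08), a 1.27-fold difference (edgeR's quasi-likelihood adjusted p = 0.014), and the call was lost without NPY1R low replicate 1 (adjusted p 0.056). The kinases AATK and LMTK3 of the same family had 36 and 64 counts over the 8 libraries, too few to test. STYK1, a kinase with a transmembrane segment but almost no outer part, had 4.31 ± 0.438 CPM in NPY1R high against 4.996 ± 0.484 CPM (SD, n = 4 per group), with overlapping libraries.

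The receptors with the most counts, MET, RYK, DDR1 and PTK7, were not called. MET, the receptor of hepatocyte growth factor, had 123.0, 119.2, 111.2 and 111.6 CPM in NPY1R high, against 111.9, 110.4, 108.3 and 121.6 CPM in NPY1R low. Its ranges overlapped, and the log2 difference of 0.04 (SE 0.06) did not pass edgeR's quasi-likelihood test (adjusted p = 0.737). RYK, a Wnt receptor with an inactive kinase domain, had 113.0, 110.5, 127.3 and 119.9 CPM in NPY1R high, against 110.4, 111.3, 112.3 and 125.0 CPM in NPY1R low. That too was an overlap, with a log2 difference of 0.04 (SE 0.06). For both, the difference was measured with a small error, and HGF, the ligand of MET, had only 2 counts over the 8 libraries.

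DDR1, the collagen receptor of epithelial cells, had 129.3, 120.4, 96.9 and 114.2 CPM in NPY1R high, against 149.5, 143.6, 119.2 and 102.8 CPM in NPY1R low, a log2 difference of -0.16 (SE 0.13). PTK7, a pseudokinase of planar cell polarity, had 141.9, 126.0, 101.0 and 129.0 CPM in NPY1R high, against 125.9, 130.05, 102.8 and 80.3 CPM in NPY1R low, a log2 difference of 0.18 (SE 0.15). Both overlapped between the groups and both were lowest in replicates 3 or 4. PTK7 was called higher once the GC trend was removed (log2 0.23, adjusted p 0.00649), and not in the other fits apart from that with both this correction and the replicate block. MST1R, a relative of MET and the receptor of macrophage-stimulating protein, had a log2 difference of -0.17 (SE 0.19). DDR2, the collagen receptor of mesenchymal cells, had one of -0.50 (SE 0.35) on 9 to 23 counts a library.

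CPM values are not a scale on which 1 receptor can be ranked against another, since longer transcripts yield more counts. Per kilobase of the longest coding transcript in GENCODE 29, RYK stood first with 39.5 CPM per kilobase and DDR1 second with 29.4, while per kilobase of the median coding transcript DDR1 stood first with 195.8 and RYK had 39.6. The order of these levels depended on which transcript length was used, so no order is given.

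Receptors of blood vessels were at or near 0 in these epithelial cells. FLT1 and KDR, the main VEGF receptors of endothelium, had 9 and 4 counts over the 8 libraries, and TEK and TIE1, the angiopoietin receptors, had 0. FLT4, the VEGFC receptor of lymphatic endothelium, was the exception with 9 to 37 counts a library and a log2 difference of 0.08 (SE 0.29). The remaining receptors were as low, with 5 counts for ALK, 26 for LTK and 0 for ROS1 and INSRR. A library with 0 counts could still hold up to 3, which is 0.101 CPM in the deepest and 0.165 CPM in the shallowest library, for counting error only.

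The ligand VEGFA, the hypoxia-inducible angiogenic factor, was lower in NPY1R high. It had 46.9, 42.8, 51.1 and 55.4 CPM in NPY1R high replicates 1 to 4 and 73.5, 63.8, 91.7 and 93.3 CPM in NPY1R low replicates 1 to 4, with no overlap. VEGFA fell by 0.72 on the log2 scale (SE 0.13; edgeR's quasi-likelihood adjusted p = 0.00467). Of 48 ligand genes listed, 18 were tested, and KITLG and PDGFD (higher) and VEGFA (lower) were those called, 16.7% of the 18 against 13.6% of all genes tested. The median log2 change of the 18 was -0.07, against -0.03 over all genes tested. Another 16 ligands had between 2 and 36 counts over the 8 libraries, and 14 had 0.

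Among 18 co-receptors, which present ligands to these kinases, 15 were tested, and the 4 that passed were all higher in NPY1R high, 26.7% of the 15, where 13.6% of all genes tested were called and 5.78% were called higher. The list was chosen with earlier results of these data known, so this share is a description and not evidence about co-receptors as a class. SDC2, a heparan sulfate proteoglycan of the syndecan family, had 148.2, 153.4, 217.6 and 182.2 CPM in NPY1R high, against 37.3, 39.4, 36.6 and 40.5 CPM in NPY1R low. The groups lay far apart, and SDC2 rose by a log2 of 2.19 (SE 0.12), a 4.56-fold difference (edgeR's quasi-likelihood adjusted p = 4.55e-06). GPC6, a glypican, rose by 1.24 (SE 0.14), NRP1, the neuropilin that binds VEGFA and semaphorins, by 0.92 (SE 0.06) and SDC4 by 0.28 (SE 0.05). NRP1 had 131.9 ± 1.85 CPM in NPY1R high against 69.5 ± 4.59 CPM (SD, n = 4 per group). The median log2 change of the 15 was 0.15. SDC1, the main epithelial syndecan, had a log2 difference of -0.49 (SE 0.17) and did not pass. With the replicate number as a block, NRP2 was also called higher and SDC1, GPC3 and SORT1 lower, 8 in all.

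Of 25 adaptors that carry the signal from the phosphorylated receptor, 24 were tested, with 2 higher, 2 lower and a median log2 change of 0.01. These 4 are 16.7% of the 24, near the 13.6% of all genes tested. GRB10, an adaptor that restrains insulin and growth factor receptors, rose from 114.7 ± 4.10 to 161.7 ± 6.51 CPM (SD, n = 4 per group), a log2 change of 0.49 (SE 0.05). FRS2, the docking protein of FGF and neurotrophin receptors, rose by 0.33 (SE 0.05). GRB7, which lies beside ERBB2 and is amplified with it, fell by 0.51 (SE 0.08). GRB2, the central link to RAS, fell by 0.18 (SE 0.05; edgeR's quasi-likelihood adjusted p = 0.0428), a call that was lost under 15 of 19 alternatives. SHC1, GAB1, PLCG1, SOS1 and PTPN11 did not pass.

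Of 27 inhibitors of receptor signalling 24 were tested, and 7 fell and 1 rose, with a median log2 change of -0.05. These 8 are 33.3% of the 24, where 13.6% of all genes tested were called, 7.81% lower and 5.78% higher. As this list too was chosen with earlier results known, its share is a description and not evidence about inhibitors as a class. The Sprouty and SPRED proteins, which are induced by RAS-ERK signalling and dampen it, gave 5 of the 7 falls. SPRY4 had 4.33, 5.09, 2.93 and 3.19 CPM in NPY1R high replicates 1 to 4 and 11.4, 10.1, 6.86 and 7.23 CPM in NPY1R low replicates 1 to 4. No library overlapped the other group, and SPRY4 fell by 1.19 on the log2 scale (SE 0.22; edgeR's quasi-likelihood adjusted p = 0.006). SPRY1 fell by 0.72 (SE 0.14), SPRED3 by 0.67 (SE 0.17; a call lost under 8 of 19 alternatives) and SPRED1 by 0.44 (SE 0.08). SPRY2 and SPRY3 had log2 differences of 0.28 and 0.07 and did not pass. The other falls, named after their values were seen, were SPRED2 by 0.36, LRIG1, which promotes loss of receptors from the surface, by 0.36 and the phosphatase gene PTPN12 by 0.35. The call of LRIG1 was lost without NPY1R high replicate 3, and that of SPRED2 without NPY1R high replicate 4. SH3KBP1, an adaptor of receptor endocytosis, rose by 0.50 (SE 0.13), a call that was lost on leaving out 5 of the 8 libraries, one at a time.

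**Figure D4:**
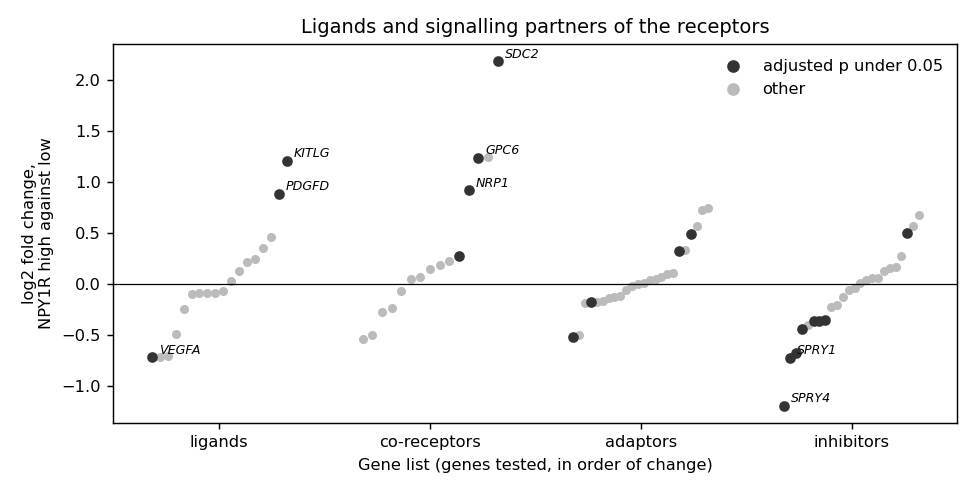
Log2 fold change, NPY1R high against low, of the tested genes of each list in order of change (18 ligands, 15 co-receptors, 24 adaptors and 24 inhibitors), where dark points have an adjusted p under 0.05. The called co-receptors all lie above 0, led by SDC2 at 2.19, and 7 of the 8 called inhibitors lie below 0, led by SPRY4 at -1.19.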

How the data were processed

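The authors deposited expected counts by gene symbol, without scaling. STAR 2.5.2, RSEM 1.3.0 and hg38 are named in the submitters' processing notes. The gene annotation and strand setting are not given in the sources used here. RSEM can divide reads shared by similar genes. The series table was used, and 0 of its values differed from the deposited single-sample tables, and 0 columns lacked a labelled sample. Expected counts were rounded, filtered with filterByExpr (minimum count 10) and scaled by TMM. edgeR's quasi-likelihood test compared the groups over all 14008 genes that passed, without covariates, with Benjamini-Hochberg adjustment and a threshold of 0.05 (R 4.3.3, edgeR 4.0.16, limma 3.58.1, DESeq2 1.42.0).

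The receptors and the lists of ligands, co-receptors, adaptors and inhibitors were chosen with earlier results of these data known. Values by library are given for receptors past the threshold, the FGF receptors, and the 4 others with most CPM. From each other list the called genes, at most the 5 of largest change, are named by that rule, and their uncalled genes and genes called only under an alternative were named after their values were seen. Log2 differences within a subset of replicates used mean CPM plus 0.05. Each SE of a log2 change was the absolute change divided by the square root of its quasi-likelihood F statistic. Gene positions came from GENCODE 29 and start regions from RefSeq (GRCh38.p14). On simulated counts, 158 of 200 genes changed by a log2 of 1 and 59 of 200 changed by 0.5 were recovered. Transcript GC came from GENCODE 29 (94.1% of tested genes), and its trend was a spline with 5 degrees of freedom per library. Alternatives were other scalings, filters, DESeq2, limma-voom, a replicate block, the GC correction, a term for replicates 1 and 2 against 3 and 4, a threshold of 0.01, and leaving out each library.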

Additional observations from a re-analysis of the deposited data

Results flagged for a closer look

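Among 40 group values of the tested receptors, 2 had a library far from the other 3 of its group (a gap past Dixon's 95% critical share of the range), and chance gives about 1 in 20, or 2. AXL had 0.275 CPM in NPY1R high replicate 4, on 5 counts, with the rest of its group at 0.558 to 0.584. RYK had 125.0 CPM in NPY1R low replicate 4, with the rest of its group at 110.4 to 112.3. Neither receptor was called, and RYK in NPY1R high ranged up to 127.3 CPM.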

How the results depend on the processing

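Of 750 values under the alternatives, 676 stayed as reported. For a gene this means the same direction and call, and for a count of called genes a value within 1.5 times that reported. Of the rest, 32 lost their call, 9 gained one, 29 counts moved by over 1.5 times and 4 reversed. NTRK3, MERTK and FGFR3 were called in the same direction in all 19 alternative fits. The GC correction gave 2961 called genes, 1807 of them lower, with 8 co-receptors and 7 adaptors. Joined to the replicate block it gave 3324 genes (1328 higher, 1996 lower), 6 ligands, 8 co-receptors and 7 adaptors. That fit called 8 receptors, 5 of them higher, with PTK7 and TYRO3 added among the higher and FGFR4 among the lower. The replicate block alone gave 1833 genes, the same 5 receptors and 8 co-receptors. High and low libraries of equal replicate number correlated, after their group means were taken out, at 0.339, 0.157, 0.0907 and 0.0178. These values lay inside the range for unequal numbers (-0.475 to 0.501), and the main fit treated the libraries as unpaired. That range spans the division of replicates 1 and 2 from 3 and 4, so it cannot exclude matching. Libraries of unequal number correlated at 0.135 to 0.501 on the same side of the division and at -0.475 to -0.0773 across it. High and low libraries thus shared this division, which the main fit did not model. Replicates 1 and 2 set apart from 3 and 4 by a term, a division seen earlier in these data, gave 2886 genes (1681 lower), 5 ligands and 8 co-receptors. DESeq2 called 5 ligands, those of the main fit with MDK and VEGFB added, both lower. That count is a description of the fit and not evidence about ligands. An adjusted p under 0.01 left 1032 genes (470 higher, 562 lower), 3 receptors (1 lower) and 5 inhibitors. Leaving out each library gave 625 to 1064 genes lower (625 without NPY1R high replicate 4), 5 to 8 inhibitors (5 without NPY1R high replicate 3) and 1 to 3 receptors lower. FGFR1 reversed with upper-quartile factors (0.0099) and ranged from -0.12 to 0.075 over the fits without a library. At 1 CPM in 4 libraries KIT was not tested. The causes were not tested. Receptors under 1 CPM rest on few counts, which limits what can be called.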
